A study of Mus musculus with 8 samples.

Results

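The cytosolic ribosomal protein genes are described here in primary mouse microglia cultured with or without IgG. They were chosen by name: protein-coding genes of the mouse GENCODE annotation whose symbols start with Rpl or Rps and a number, with the stalk genes Rplp0, Rplp1 and Rplp2 and with Rpsa. Of 55385 genes in the count table, 392 had such a symbol. Left out were 290 that are not protein-coding, 10 Rps6k kinases and 6 protein-coding genes with a pseudogene (-ps) symbol, which left 86 members. By role, 46 encode proteins of the large subunit, 31 proteins of the small subunit and 8 paralogues of such proteins. The remaining 1, Rps19bp1, encodes a protein that binds Rps19 and is not part of the ribosome, but its symbol fits the rule.

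The cytosolic ribosome is built from a small subunit, which reads the mRNA, and a large subunit, which joins amino acids and carries a stalk that recruits elongation factors. Its protein genes are spread over the genome and are among the most abundantly expressed genes of most cells. Their mRNAs usually begin with a run of pyrimidines at the cap, the 5′ terminal oligopyrimidine (TOP) tract, through which mTOR signalling and the protein Larp1 set how strongly they are translated. Microglia are the resident macrophages of the brain and bear receptors for the constant part of IgG.

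The samples were 8 libraries of poly(A) RNA from wild-type mice, 4 labelled untreated (control) and 4 treated with IgG at 10 µg/ml for 24 h at 15 days in vitro (DIV15). Microglia were shaken off mixed cultures of hippocampus and neocortex, in which the cells of several brains had been pooled, in medium with heat-inactivated fetal bovine serum that both groups shared. Each replicate number names 1 control and 1 IgG library with the same date in the labels, called a pair here, and the comparison asks which mRNA levels differ after exposure to IgG. Nothing in the labels says that the pairs came from different animals, so p-values measure the spread between these cultures only.

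Library totals ran from 21287816 to 23703216 counts. Values are CPM, each count scaled by the library total and its TMM factor, and at this depth the limit that a count of 0 allows, 3 counts, was 0.127 to 0.141 CPM of the unscaled total. The 9 microglial markers summed to 6880 to 7550 CPM in control and 7621 to 8145 CPM in IgG libraries. Of the 9, 8 had a fold change above 0 and 1 was called, Aif1 (log2 fold change 0.69, edgeR adjusted p = 0.0331), and P2ry12 and Tmem119 stayed between 5.41 and 16.0 CPM and between 4.69 and 8.78 CPM. Markers of the oligodendrocyte lineage were present at 1114 to 1738 CPM in control and 937 to 1638 CPM in IgG libraries, with 0 of 7 called. The summed markers of astrocytes, neurons and fibroblasts stayed at or under 153 CPM in every library. Libraries IgG 1 and IgG 3 stood apart by the share of counts from mitochondrially encoded genes, at 4.85% and 5.59% against 1.97% to 2.41% in the other 6 libraries, and by the summed levels of 3 marker lists given with the results.

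Pyrimidine runs at the mRNA start were more frequent among members than among all genes. RefSeq promoter sequences (GRCm38.p6, 250 bases before to 50 after each start) were found for 66 of the 86 members. In the 30 bases around the start, CTTTCC or CTTTTC on the sense strand occurred in 24.2% of these members and in 2.88% of 27025 genes with a promoter. A pyrimidine run of at least 7 bases occurred there in 51.5% of members and in 21.3% of all genes. The windows below are those of 5 members described further on and were chosen for their runs of 9 to 11 bases, to show what such a tract looks like. Some other named members had shorter ones, such as Rps2 with 6 and Rpl39l with 7. Others had runs as long or longer, such as Rps18 with 11 and Rpl13a with 13. Each is the sense strand, 5′ to 3′, with 15 bases before and 15 bases from the annotated start, and capitals mark the longest pyrimidine run. Rplp2 lies at chr7:141447636-141447665 (+), Rps6 at chr4:86857353-86857382 (-), Rpl28 at chr7:4792950-4792979 (+), Rpl38 at chr11:114668565-114668594 (+) and Rps27 at chr3:90213634-90213663 (-).
Rplp2: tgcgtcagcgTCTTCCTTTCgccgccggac
Rps6: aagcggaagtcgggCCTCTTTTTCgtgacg
Rpl28: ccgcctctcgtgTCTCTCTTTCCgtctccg
Rpl38: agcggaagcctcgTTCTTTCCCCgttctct
Rps27: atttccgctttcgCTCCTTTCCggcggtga
In the whole 300 bases, CTTTCC on the sense strand occurred in 40.9% of members and 16.0% of all genes, and CTTTTC in 19.7% and 12.9%. CCGGAAG, the core that ETS factors bind, occurred on either strand in 39.4% of members and 9.93% of all genes. AAGATGG, a YY1 core, occurred on either strand in 15.2% and 7.28%. TATAAA occurred on the sense strand in 9.09% of members and 9.77% of all genes. These are matches of letters around annotated starts, not measured start sites or bound sites.

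The 86 members together took 2.41%, 2.47%, 2.56% and 2.41% of all counts in control libraries 1 to 4. They took 1.94%, 2.44%, 2.07% and 3.02% in IgG libraries 1 to 4. The control libraries lay close together, and the IgG libraries lay below, within and above them, so the groups overlapped. The mean was 2.46% ± 0.0705 (SD, n = 4) in control and 2.37% ± 0.488 (SD, n = 4) in IgG. Within pairs, IgG minus control was -0.476, -0.0281, -0.492 and 0.620 percentage points. Leaving mitochondrially encoded counts out of the total gave -0.437, -0.0331, -0.430 and 0.623. In bulk RNA, fewer cells of a type and less RNA per cell cannot be told apart.

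**Figure D1:**
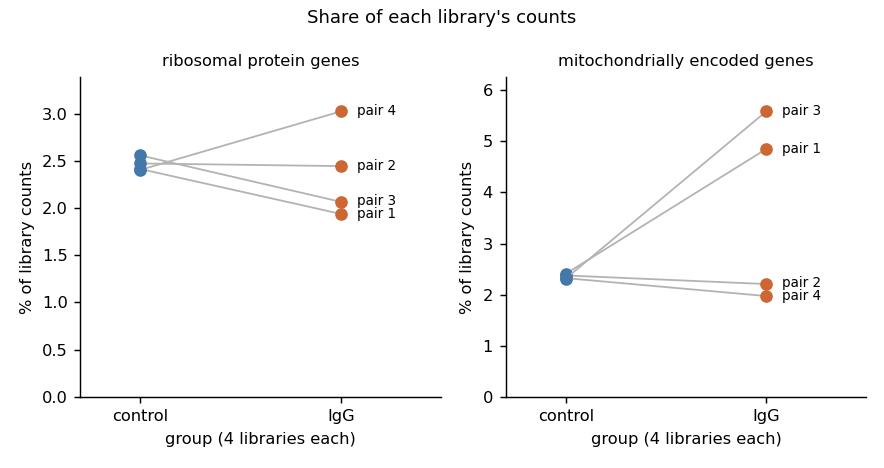
Percent of each library's counts on the 86 ribosomal protein genes (left) and on mitochondrially encoded genes (right), with each point a library and each line a pair. The control libraries sit between 2.41% and 2.56% on the left, while IgG 1 and IgG 3 lie below them on the left and above the others on the right.

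The 2 IgG libraries with the lowest ribosomal share were those with the highest mitochondrial share, IgG 1 with 1.94% and 4.85% and IgG 3 with 2.07% and 5.59%. IgG 4 had the highest ribosomal share, 3.02%, and the lowest mitochondrial share, 1.97%. The markers of cycling cells, Mki67 and Top2a, summed to 91.7 and 90.3 CPM in IgG 1 and IgG 3, to 67.1 CPM in IgG 2 and to 53.4 CPM in IgG 4, against 67.7 to 74.7 CPM in control. Markers of border-associated macrophages summed to 106, 80.4, 105 and 50.5 CPM in IgG libraries 1 to 4, against 56.4 to 81.3 CPM in control. Most of this sum was Mrc1, with a mean of 67.0 CPM in control and 79.0 CPM in IgG. Lyve1 and Cd163 reached at most 0.225 and 0.135 CPM and did not pass the filter. Markers of the oligodendrocyte lineage summed to 937, 1638, 946 and 1510 CPM in IgG libraries 1 to 4. The part of mitochondrial RNA and of these cells in the ribosomal values was not tested.

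Gene by gene, IgG was compared with control in edgeR's quasi-likelihood test with the pair as a block, over 17537 genes. Of the members, 84 passed the filter on low counts. None was called at an adjusted p under 0.05, where 0.393% of all genes tested were called. The lowest adjusted p of a member was 0.368. DESeq2 called 1 member, Rps27rt, and 1.46% of the genes it gave an adjusted p, and limma-voom 0 members and 0.502% of all genes. The median log2 fold change was -0.0054 over the members and -0.0051 over all genes tested, with 39 members above 0 and 45 below. At an unadjusted p under 0.05, 9 members (10.7%) were higher against 6.35% of all genes, and 0 were lower against 3.85%. By the criterion of the study, an unadjusted p under 0.01 with an absolute log2 fold change above 0.5, 0 members were higher and 0 lower, against 1.48% and 0.342% of all genes. Groups did not overlap for 2 members (2.38%), against 4.17% of all genes.

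The median near 0 was not a common value of the 4 pairs. The members' median log2 difference in CPM, IgG minus control, was -0.19 in pair 1, -0.0043 in pair 2, -0.22 in pair 3 and 0.39 in pair 4. The median of all genes tested lay between 0.0010 and 0.016 in each pair. Of the 84 members, 23 were higher with IgG in pair 1, 38 in pair 2, 21 in pair 3 and 83 in pair 4. The differences spread most in pairs 1 and 3 (SD over members 0.41 and 0.43), less in pair 4 (0.15) and least in pair 2 (0.065). Over all genes tested the SDs were 0.54, 0.33, 0.54 and 0.43 in pairs 1 to 4, wider than over the members in each pair. IgG 4 was the highest of all 8 libraries for 72 members, and IgG 1 the lowest for 44. No control library was the highest for any member. The same counts were not made over all genes, so they cannot be read as particular to the members. The median deviation from each gene's own mean log2 CPM was 0.35 over members and 0.015 over all genes in IgG 4. In IgG 1 it was -0.23 and 0.00074.

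**Figure D2:**
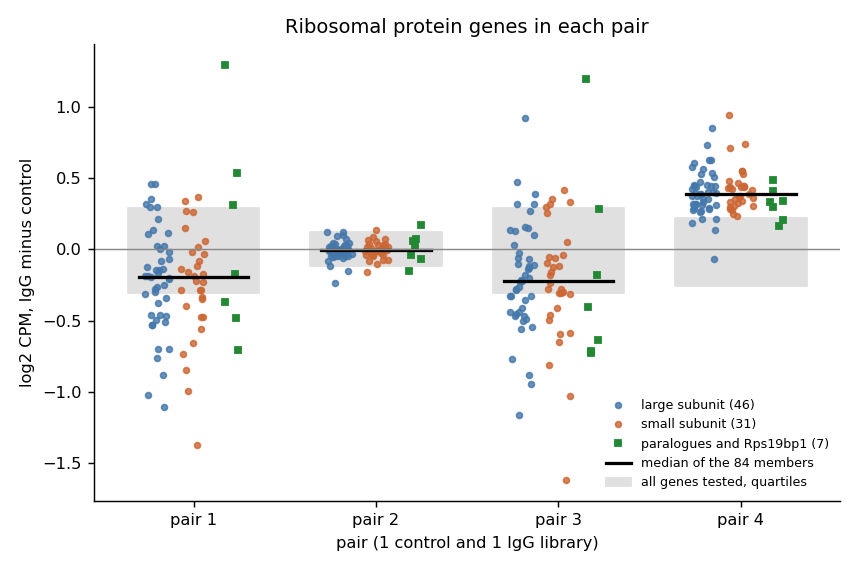
Log2 CPM difference, IgG minus control, of each of the 84 members that passed the filter, by pair; each point is a gene, the black line is their median and the grey band spans the quartiles of all 17537 genes. Pairs 1 and 3 spread from -1.62 to 1.30, pair 2 stays near 0 and 83 of 84 points lie above 0 in pair 4.

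Both subunits shared this course. The medians of the 46 large subunit genes in pairs 1 to 4 were -0.19, -0.0043, -0.22 and 0.39. Those of the 31 small subunit genes were -0.22, -0.0067, -0.23 and 0.42. Lower in pairs 1 and 3 and higher in pair 4 were 59 members (70.2%), where 23.8% of all genes tested had these signs. In the remainder, 19 members were higher in both pairs 1 and 3, and 6 had opposite signs in those pairs. Across the 84 members, the differences of pair 1 and pair 3 had a Pearson r of 0.904, and across all genes tested 0.619. These pairs share no library, but genes are not independent replicates, and all points of a pair come from the same libraries. Pairs 1 and 4 gave an r of -0.54 across members, and pairs 3 and 4 gave -0.55.

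The 4 members with the lowest fold changes are described first, a choice that favours low values in some pairs. Rps28, not among them, had pair differences of -0.85, -0.07, -1.03 and 0.71. Rps29, a small zinc-binding protein of the small subunit (GRCm38 chr12:69157722-69159186, minus strand), had 325, 339, 413 and 261 CPM in control libraries 1 to 4. Its IgG libraries 1 to 4 had 125, 360, 134 and 502 CPM. IgG 1 and IgG 3 lay below every control library and IgG 4 above every one. The log2 differences in pairs 1 to 4 were -1.38, 0.09, -1.62 and 0.95. The fitted log2 fold change was -0.50 ± 0.40 (SE), with an adjusted p of 0.662 in edgeR, and ran from -0.99 to -0.10 with a pair left out.

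Rpl38, a large subunit protein known for its part in translating Hox mRNAs (chr11:114668524-114672331, plus strand), had 124, 134, 137 and 101 CPM in control. It had 57.8, 134, 61.0 and 183 CPM in IgG libraries 1 to 4. Again IgG 1 and IgG 3 were the lowest of the 8 libraries and IgG 4 the highest. Its fold change was -0.36 ± 0.31 on the log2 scale (edgeR, adjusted p = 0.685), and ran from -0.77 to -0.077 with a pair left out. Rpl28, a large subunit protein (chr7:4792874-4795066, plus strand), had 252, 239, 246 and 244 CPM in control and 136, 244, 128 and 339 CPM in IgG. The 4 control values of Rpl28 differed by less than the distance of IgG 1, IgG 3 or IgG 4 from any of them, and the fold change was -0.33 ± 0.23 (edgeR, adjusted p = 0.619), or -0.62 to -0.12 with a pair left out.

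Rpl11 and Rpl5 bind 5S rRNA and, outside the ribosome, the p53 regulator Mdm2. Rpl11 (chr4:136028265-136053428, minus strand) had 379, 413, 430 and 383 CPM in control and 186, 372, 233 and 519 CPM in IgG. Rpl5 (chr5:107900502-107909005, plus strand) had 458, 450, 491 and 481 CPM in control and 532, 451, 546 and 585 CPM in IgG. These partners differed in direction in pair 1, at -1.03 for Rpl11 and 0.22 for Rpl5, and in pair 3, at -0.88 and 0.15. In pair 4 both were higher, by 0.44 and 0.28. The fold changes were -0.41 ± 0.23 for Rpl11 (edgeR, adjusted p = 0.561; -0.70 to -0.20 with a pair left out) and 0.16 ± 0.09 for Rpl5 (adjusted p = 0.563; 0.11 to 0.22), and the difference between the genes was not tested.

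**Figure D3:**
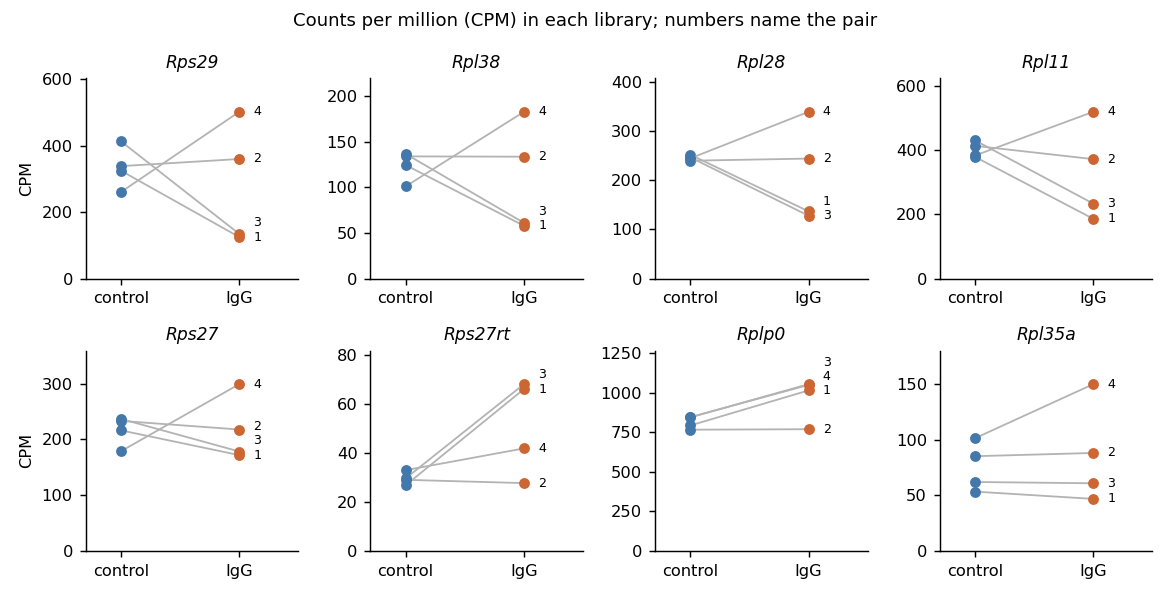
CPM of 8 members in every library, on axes that start at 0; blue points are control, orange points IgG, lines join pairs and the numbers name the pair. Rps29, Rpl38, Rpl28 and Rpl11 are low in IgG 1 and IgG 3 and high in IgG 4, Rps27rt is high in IgG 1 and IgG 3, Rplp0 is lower in IgG 2 than in the other IgG libraries and Rpl35a follows the pair in both groups.

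The members differed from each other by the length of their mRNA. Split by the length of the principal transcript into 3 sets of 28, the shortest (345 to 597 bases) had medians of -0.43 in pair 1, -0.43 in pair 3 and 0.45 in pair 4. The middle set (612 to 887 bases) had -0.17, -0.28 and 0.42. The longest (899 to 5130 bases) had -0.11, -0.11 and 0.31. In pair 2 all 3 medians were within 0.01 of 0. Spearman's rho of the difference with mRNA length over the 84 members was 0.38, -0.02, 0.37 and -0.42 in pairs 1 to 4. With exon length over 17503 genes of the table it was 0.21, -0.03, 0.21 and -0.35. On that exon length the members gave 0.16, 0.09, 0.22 and -0.24. Over all genes rho with GC content was -0.38, -0.03, -0.39 and 0.31. A fit that corrected for exon length and GC with the pair as a block gave a median of 0.03 over the members. The mRNA length that defined the 3 sets was not corrected for. It called 0 members at an adjusted p under 0.05 in edgeR, where 1.17% of all genes were called.

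**Figure D4:**
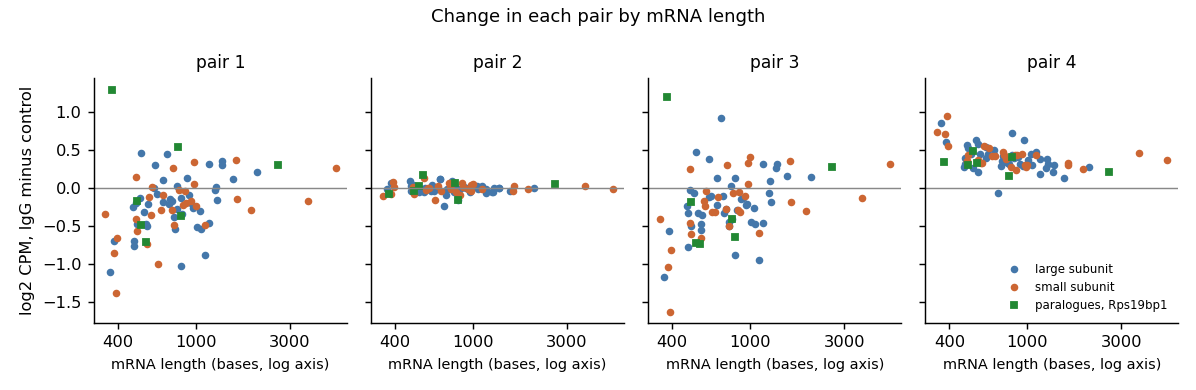
Log2 CPM difference, IgG minus control, against mRNA length (log axis) for the 84 members, by pair. The shortest mRNAs reach the lowest values in pairs 1 and 3, with Rps29 at -1.38 and -1.62, and the highest in pair 4, with Rps29 at 0.95; Rps27rt is the square near 1.30 and 1.20.

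The 9 members higher at an unadjusted p under 0.05 included Rplp0, Rpl26, Rpl27, Rpsa, Rps4x, Rps15a, Rps27rt and Rpl7l1. None passed the adjustment over all genes. Rplp0, the base of the stalk (chr5:115559467-115563727, plus strand), had 792, 765, 843 and 844 CPM in control and 1014, 769, 1053 and 1048 CPM in IgG. Its IgG libraries lay above every control library except IgG 2, and the fold change was 0.25 ± 0.10 (edgeR, adjusted p = 0.471). Of the stalk proteins that bind to it, Rplp1 had pair differences of -0.47, 0.00, -0.50 and 0.53, and Rplp2 of -0.26, -0.05, -0.20 and 0.63, with fold changes of -0.11 ± 0.17 and 0.03 ± 0.15.

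Rpsa, a small subunit protein also known as the laminin receptor precursor, had 663, 559, 708 and 522 CPM in control and 855, 545, 906 and 658 CPM in IgG. Pairs 1, 3 and 4 differed by 0.37, 0.36 and 0.33 and pair 2 by -0.04 (fold change 0.26 ± 0.10, edgeR adjusted p = 0.475). Rps4x, the X-linked form of a small subunit protein, had 448, 442, 466 and 462 CPM in control and 568, 430, 587 and 572 CPM in IgG. Both were thus near their control in pair 2 and higher in the other 3 pairs. Rps15a, of the small subunit, had a fold change of 0.24 ± 0.10 (edgeR, adjusted p = 0.472). The large subunit genes Rpl26 and Rpl27 had 0.29 ± 0.11 (adjusted p = 0.459) and 0.28 ± 0.10 (adjusted p = 0.400). Rpl7l1, a paralogue of Rpl7 with a role in ribosome assembly, had 0.22 ± 0.09 (adjusted p = 0.475) and was higher in 4 of 4 pairs.

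Rpl24, which lies at the face between the subunits, and Rpl3, a protein near the peptidyl transferase centre, were the members whose groups did not overlap. They were singled out after their values were seen. Rpl24 had 173, 160, 173 and 156 CPM in control and 186, 174, 190 and 212 CPM in IgG. Rpl3 had 246, 263, 258 and 249 CPM in control and 303, 263.1, 312 and 289 CPM in IgG, and its IgG 2 value exceeded the highest control, 262.8 CPM, by less than 1 CPM. Fold changes were 0.20 ± 0.09 for both (edgeR, adjusted p = 0.507), and without pair 4 that of Rpl24 was 0.11.

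Rps27rt had the highest fold change of all members. It is a gene of 1 exon on chr9 (114982366 to 114982739, minus strand), a copy of the small subunit gene Rps27, which has 4 exons on chr3 (90212522 to 90213651, minus strand). Both transcripts were cut to their coding parts, 255 bases each, and the number of differences was 0. The shared coding sequence is shown, from GENCODE M21 transcripts, because reads from it cannot be told apart.
Rps27 and Rps27rt: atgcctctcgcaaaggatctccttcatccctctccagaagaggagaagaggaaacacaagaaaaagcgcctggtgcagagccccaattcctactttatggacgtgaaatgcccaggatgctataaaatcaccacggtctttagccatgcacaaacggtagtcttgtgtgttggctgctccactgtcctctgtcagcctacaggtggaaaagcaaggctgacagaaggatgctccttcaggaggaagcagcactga
Of all 50-base windows of the mRNA, 98.6% of those of Rps27 and 91.1% of those of Rps27rt occurred in transcripts of another gene. The counts differed in direction in pairs 1 and 3. Rps27rt had 26.8, 29.0, 29.6 and 33.0 CPM in control and 66.0, 27.7, 68.1 and 41.8 CPM in IgG libraries 1 to 4. Rps27 had 216, 233, 237 and 179 CPM in control and 172, 218, 178 and 299 CPM in IgG. In pairs 1 and 3 Rps27rt was higher by 1.30 and 1.20, while Rps27 had -0.33 and -0.41. In pairs 2 and 4 both had the same sign, -0.07 and 0.34 for Rps27rt and -0.10 and 0.74 for Rps27. The fold changes were 0.70 ± 0.22 for Rps27rt (edgeR, adjusted p = 0.368) and -0.03 ± 0.18 for Rps27 (adjusted p = 0.964). How reads with several alignments were counted is not given in the sources used here, so both genes are uncertain as single genes.

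The pair differences of the other paralogues were as follows. Rpl22 had pair differences of -0.25, 0.10, -0.23 and 0.28, and its paralogue Rpl22l1 of -0.71, 0.17, -0.73 and 0.33. Rpl36a had -0.76, 0.03, -0.77 and 0.40, and Rpl36al -0.48, 0.03, -0.72 and 0.49. Rps27l, a further relative of Rps27, had -0.17, -0.04, -0.18 and 0.30. Rpl3l, known from muscle, had between 0 and 7 counts per library, and Rpl10l, known from testis, had 0 counts in all 8, which allows up to 0.141 CPM in a single library. These last were the members that did not pass the filter.

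Other members with known roles outside the ribosome differed by pair as well. Rps27a, which is made as a fusion with ubiquitin, had -0.99, -0.16, -0.31 and 0.53. Rps19, mutated in Diamond-Blackfan anaemia, had -0.48, -0.01, -0.50 and 0.39. Rps3, which also acts in DNA repair, had -0.29, -0.01, -0.30 and 0.25, and Rpl13a, a part of a translational silencing complex, -0.30, 0.04, -0.26 and 0.45. Rps6, the substrate of the S6 kinases, had the smallest range of these, with -0.03, 0.07, -0.05 and 0.24. The fitted fold changes of these members lay between -0.23 and 0.05, with adjusted p from 0.691 to 0.967 in edgeR.

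Leaving out single pairs moved the counts. Without pair 4, 26 of 83 members tested (31.3%) were lower at an unadjusted p under 0.05, where 11.3% of all genes were, and 3 (3.61%) were higher, where 12.1% of all genes were. Their log2 fold changes ran from -0.99 for Rps29 to -0.21, and the lowest adjusted p of a member was 0.0965 (edgeR), so 0 passed. Of these 26, 15 belonged to the shortest 28. The count of members at an unadjusted p, 9 with all pairs, was 1 without pair 1, 10 without pair 2, 1 without pair 3 and 29 without pair 4. Over all genes the shares were 4.44% without pair 1, 9.2% without pair 2 and 4.24% without pair 3. Without both pairs 1 and 3, a setting chosen after seeing the data, the members' median was 0.19 and Rps29 was called (log2 fold change 0.52, edgeR adjusted p = 0.0447), on 4 libraries, where 1.07% of all genes were called. Rps29 was lower with IgG in both pairs left out there, so this call follows from the choice of setting and tests nothing.

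Between the dates in the labels, tested on the block terms of the same fit, 2 members (2.38%) were called at an adjusted p under 0.05, against 0.975% of all genes. Rpl35a, a large subunit protein mutated in some Diamond-Blackfan anaemia (chr16:33056453-33060189, plus strand), had 53.4, 85.3, 62.1 and 101 CPM in control libraries 1 to 4 and 46.8, 88.2, 60.9 and 150 CPM in IgG libraries. Pairs 1 and 3 were low and pairs 2 and 4 high in both groups (edgeR, adjusted p = 0.0421). Rpl39l, a testis-enriched paralogue of Rpl39 (chr16:10170226-10174911, plus strand), had 0.290, 1.40, 0.418 and 2.02 CPM in control and 0.462, 1.48, 0.294 and 2.27 CPM in IgG. It was low in pairs 1 and 3 of both groups as well (edgeR, adjusted p = 0.0375). Rpl39 itself had 160, 172, 178 and 152 CPM in control and 160, 168, 164 and 221 CPM in IgG, so only its IgG libraries were lower in pairs 1 and 3 than in pairs 2 and 4. The summed oligodendrocyte markers were low in pairs 1 and 3 as well, with 1114, 1738, 1146 and 1545 CPM in control and 937, 1638, 946 and 1510 CPM in IgG, and their part in these calls was not tested. Rpl35a was called without pair 3 or 4 and not without pair 1 or 2. Rpl39l was not called without pair 1 or 3, and did not pass the filter without pair 2 or 4. The labels do not say what was done on these dates.

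Levels were compared between the 77 core members, those of either subunit, as mean CPM per kilobase of mRNA over the 8 libraries. They ran from 5.15 to 1178, with a median of 351 and quartiles of 254 and 511, so the middle members lay within a 2.02-fold range. The highest were the stalk gene Rplp1 at 1178, Rpl41, which encodes the smallest ribosomal protein, at 1051, and Rps14 at 818 CPM per kilobase. Below 60 were 6 genes, Rpl21 at 5.15, Rpl29 at 7.83, Rpl34 at 21.0, Rps2 at 23.5, Rps15a at 39.5 and Rps18 at 50.4. The order depended on the length used. Per kilobase of exon length, Rplp1 was again highest at 1178, followed by Rplp0 at 537 and Rps15 at 511, and Rps14 had 204. Rpl35a, Rpl30 and Rps13 then also lay under 60, at 23.0, 30.6 and 40.4. The transcript of Rps15a was the longest of all members at 5130 bases, which lowers its value per kilobase. All but 1 of the 77 shared 50-base windows with other genes, in the median 52.9% of their windows. Rpl21 and Rpl29 shared windows with 82 other genes each and Rps2 with 71, where the median of the 77 was 10 and the highest 120, so their low counts are uncertain as levels of a single gene. The rank correlation of level with this share was -0.03 over the 77 genes.

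**Figure D5:**
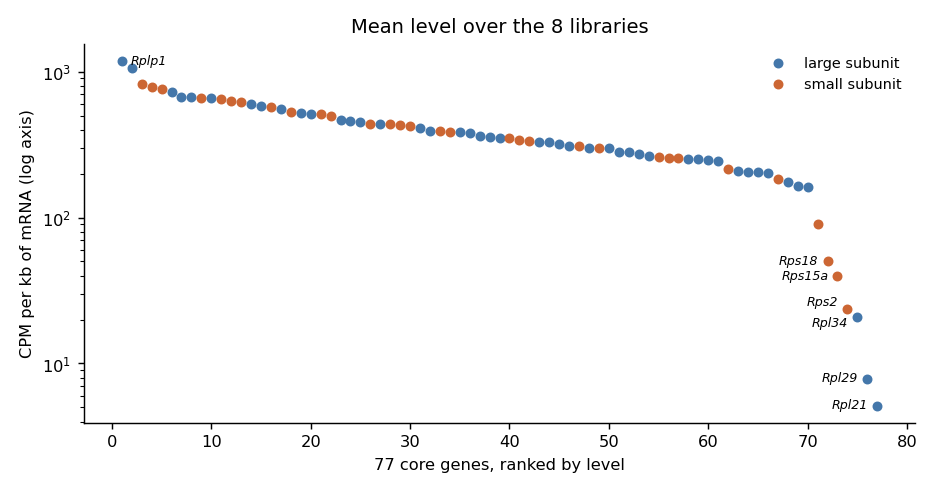
Mean CPM per kilobase of mRNA (log axis) of the 77 core genes over the 8 libraries, ranked from the highest to the lowest. The quartiles are 254 and 511, Rplp1 leads at 1178 and the 6 named genes at the right lie under 60.

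The genes that work with the members were read from lists. Of 20 ribosome biogenesis genes, such as the nucleolar genes Fbl, Ncl and Npm1, 0 were called and 0 had an unadjusted p under 0.05 (against 6.35% higher and 3.85% lower of all genes), and the pair medians were 0.067, -0.029, -0.035 and 0.12. Of 13 translation factors and related genes whose mRNAs also carry TOP tracts, 0 were called and 2, Pabpc1 and Eif3e, had an unadjusted p under 0.05 (15.4% higher, against 6.35% of all genes), and their pair medians were 0.23, -0.010, 0.13 and 0.19. Of these 13, 9 were higher in both pairs 1 and 3 and 4 lower in both, against 19 and 59 of the 84 members. Eef1a1, which brings aminoacyl-tRNA to the ribosome, had 5982 ± 69.5 CPM in control and 7052 ± 839 in IgG (SD, n = 4), with pair differences of 0.39, -0.01, 0.35 and 0.19. Pabpc1, the poly(A)-binding protein, had 0.74, 0.11, 0.77 and -0.07. Of 11 regulators, among them Mtor, Larp1 and Myc, 0 were called and 0 had an unadjusted p under 0.05 (against the same shares of all genes), and their fold changes lay between -0.27 and 0.21.

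Genes of the mitochondrial ribosome and of oxidative phosphorylation encoded in the nucleus had pair medians like those of the members. The 78 mitochondrial ribosomal genes had -0.14, 0.031, -0.21 and 0.28, with 64.1% lower in pairs 1 and 3 and higher in pair 4. The 88 nuclear oxidative phosphorylation genes tested had -0.20, -0.016, -0.31 and 0.37, with 67.0% of that pattern. The 13 protein-coding genes of the mitochondrial genome went the other way in pairs 1, 3 and 4, with pair medians of 1.20, -0.15, 1.47 and -0.24. In each of these lists 0 genes were called (edgeR, lowest adjusted p 0.170, 0.479 and 0.465). At an unadjusted p under 0.05, 5, 2 and 3 genes of these lists were higher (6.41%, 2.27% and 23.1%, against 6.35% of all genes) and 0 lower (against 3.85%).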

How the data were processed

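Groups, doses and replicate numbers came from the labels. The deposited values are raw counts per Ensembl gene that the authors made from poly(A) libraries; the submitters' processing notes name GRCm38, HISAT2 2.2.1, SAMtools 1.12, Picard 2.26.3, featureCounts, R 4.1.2 and edgeR 3.36.0. The annotation, the strand setting and the treatment of reads with several alignments are not given in the sources used here, so members with near-identical copies are uncertain.

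Symbols, positions and transcript lengths came from GENCODE M21 (GRCm38), in which 55144 of 55385 identifiers were found. Counts were filtered with filterByExpr, scaled with TMM and compared by quasi-likelihood F-tests (edgeR 4.0.16, R 4.3.3) on a design of replicate number, as a block, and group, with Benjamini-Hochberg adjustment over all genes tested. Log2 CPM used a prior count of 2. Same-numbered libraries share a date in the labels, and the samples were paired by it. Their deviations from the group means correlated at 0.441, 0.383, 0.262 and 0.315 over 14154 genes. Between different numbers the correlation ran from -0.356 (control 1 with IgG 4) to 0.232 (control 1 with IgG 3). It was also above 0 for control 3 with IgG 1 (0.176), control 4 with IgG 2 (0.183) and control 2 with IgG 4 (0.174). Limits for a count of 0 cover counting error only, while standard errors and intervals of fold changes include the spread between cultures. The fit was tested on simulated data for IgG against control (17537 genes at the median dispersion, 50 changed per fold), where it called 100% of genes changed 4-fold either way and of those raised 2-fold, 98% of those lowered 2-fold, and 9 unchanged genes among 208 called. In the simulation the changed genes were drawn from those above a low CPM limit and had the same fold in every pair. Its rates therefore do not cover smaller changes or changes that differ between pairs. Transcript sharing was counted in windows of 50 bases against all GENCODE transcripts.

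Members, lists and tests were chosen with earlier results of these data known. Named by rule were members called, the 4 with the highest and the 4 with the lowest fold change, the 3 with the highest and lowest level per kilobase, and members fixed for their role (29 in all), and 13 more were named after their values were seen. Alternatives were other scalings, filters, tools and designs, and leaving out each pair. Some genes are not reported here.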

Additional observations from a re-analysis of the deposited data

Results flagged for a closer look

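In 86 groups of 4 libraries tested for a library far from the rest, 3 values stood out, fewer than the 1 in 20 that chance gives. Rpl39, a large subunit protein at the exit tunnel, was highest in IgG 4 at 221 CPM, with the other IgG libraries between 160 and 168 CPM. Rplp0 was lowest in IgG 2 at 769 CPM, with the others from 1014 CPM. Rps4x was lowest in IgG 2 at 430 CPM, with the others from 568 CPM. No cause was tested for these values.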

How the results depend on the processing

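No alternative with all pairs gave more than 1 member called at an adjusted p under 0.05: 1, Rps27rt, with genes of at least 1 count in any library (adjusted p 0.00667; 1.18% of members, against 1.2% of all genes) and with DESeq2 1.42.0 (adjusted p 0.0454), and 0 elsewhere. Without the replicate block that pairs the samples, 0 members and 0% of all genes were called. In that fit 8 members had an unadjusted p under 0.05 (9.52%, against 7.01% of all genes). The criterion of the study was met by 1 member there, and by 1 each with the 1-count filter, the likelihood ratio test and DESeq2. Over all genes these shares were 0.844%, 2.07%, 3.01% and 2%. The count of members at an unadjusted p was 1 with library totals alone (1.19%, against 12.0% of all genes), 4 with at least 10 counts in every library (4.82%, against 10.4%), 13, of which 5 lower, with at least 1 count in any library (15.3%, against 8.52%) and 12 with the length and GC correction (14.3%, against 14.1%). Library totals alone moved the median of all genes by -0.10, and that of the members was then -0.11. Between dates, 1 member was called with library totals alone, where 0.821% of all genes were. With at least 10 counts in every library it was 0, where 0.899% of all genes were called and Rpl39l was not tested. With at least 1 count in any library it was 3 (with Rps27a), where 2.84% of all genes were called. Without both replicates 1 and 3, chosen after seeing the data, 1 member (1.19%) was called, 1 met the criterion of the study and 1 differed between dates. Over all genes these shares were 1.07%, 1.84% and 1.39%. Leaving out a replicate gave 1 to 29 members at an unadjusted p, 0 to 6 by the criterion and 0 to 1 between dates. The 6, without replicate 4, were 7.23% of members against 4.34% of all genes, and between dates 0.0342% to 1.04% of all genes were called. The members' median then lay between -0.16 and 0.068.

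Signs of small fold changes turned with the correction for length and GC with the replicate block (Rpl13a 0.024, Rpl41 0.052, Rps27 0.035), without the block (Rpl41 0.031, Rps27 0.0034) and with library totals alone (Rpl39 -0.0026, Rplp2 -0.071, Rps6 -0.045). With a replicate left out, signs turned within -0.19 to 0.075 for Rpl13a, -0.0052 to 0.19 for Rpl21, -0.14 to 0.050 for Rpl22, -0.071 to 0.20 for Rpl35a, -0.41 to 0.014 for Rpl36al, -0.065 to 0.17 for Rpl39, -0.23 to 0.10 for Rpl41, -0.34 to 0.023 for Rplp1, -0.19 to 0.13 for Rplp2, -0.022 to 0.19 for Rps14, -0.30 to 0.10 for Rps27, -0.50 to 0.020 for Rps27a, -0.15 to 0.032 for Rps27l and -0.022 to 0.091 for Rps6. The cause was not tested.

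Standard errors of the members' fold changes ran from 0.089 to 0.40, with a median of 0.13. The widest 95% interval was that of Rps29, from -1.41 to 0.42. For 9 members it left out 0 before adjustment.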

Other observations

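Genes with ribosomal protein symbols were left out as not protein-coding (290) or by a -ps symbol alone (6). Those of them with a -ps symbol took 0.508% to 0.544% of counts in control libraries. In IgG libraries 1 to 4 they took 0.451%, 0.515%, 0.490% and 0.628%. Of all 296 genes left out in these 2 ways, with or without a -ps symbol, 113 passed the filter and 0 were called in edgeR. At an unadjusted p under 0.05, 15 were higher (13.3%, against 6.35% of all genes) and 0 lower (against 3.85%). Their pair medians were -0.13, -0.0035, -0.070 and 0.39, against -0.19, -0.0043, -0.22 and 0.39 for the members. Adding the genes with a -ps symbol to the members changed IgG minus control of the summed share to -0.539, -0.0282, -0.546 and 0.739 percentage points.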
